A study of Mus musculus with 20 samples.

Results

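The lowest dose of raw potato starch (RPS) was compared with none in the cecum, using the 5 mice on the Total Western Diet (TWD) with 2% RPS and the 5 mice on the TWD with 0% RPS. These 10 mice were chosen by the treatment given in their labels and are 10 of the 20 mice in the series, whose other 10 mice ate 5% or 10% RPS. All were C57BL/6 mice that were 3 weeks old when put on the TWD. They ate it for 6 weeks and then ate the TWD with 0, 2, 5, or 10% RPS (w/w) for another 3 weeks, so the controls too ate the TWD throughout. The TWD is a rodent diet modeled on American nutrient intakes, so the comparison is of a starch supplement on that background and not of a standard chow. RNA of whole cecal tissue was measured by RNASeq as read counts per gene.

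RPS is uncooked potato starch and a source of type 2 resistant starch (RS2), whose granules resist amylase in the small intestine and reach the cecum largely undigested. There, bacteria ferment it to the short-chain fatty acids (SCFAs) acetate, propionate, and butyrate. Colonocytes take up SCFAs through monocarboxylate carriers, oxidize butyrate in mitochondria as a main fuel, and sense SCFAs through G protein-coupled receptors. Absorptive cells of the gut also take up, store, and oxidize dietary fat, partly under the control of fatty acid-sensing nuclear receptors. The comparison asks which cecal genes differed at the lowest dose in the series.

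Mice within each diet were numbered 1 to 5 in the order of their labels. Total counts were 25106282 to 38064842 with 0% RPS and 20376315 to 42687283 with 2% RPS, with a median of 565.7 counts over the tested genes. A floor of 3 counts corresponded to 0.0687 to 0.144 CPM (counts scaled to library size by TMM) across these libraries, for counting error only. Total count, genes detected, and the shares of counts on mitochondrially encoded genes, on immunoglobulin genes, and on the 50 most abundant genes were compared between the diets by 5 two-sided exact permutation tests. The lowest p was 0.627, for the mitochondrial share (adjusted p = 0.976). Epithelial markers were abundant on both diets. The summed level of 8 such genes, including Epcam and Krt8, was 13270 to 17880 CPM with 0% and 13480 to 17330 CPM with 2% RPS. Among pancreatic acinar markers, 5 of 9 listed genes were matched and 1 of these had enough counts to be tested. The labels name no litter or cage, so p-values measure only the spread between these mice. In whole tissue, fewer cells of a type and less RNA per cell cannot be told apart.

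A pair of libraries stood apart from the others in their distance over all tested genes. The fit that leaves out both was added after seeing the data. The root mean square distance in log2 CPM to the other mice averaged 0.698 for mouse 3 on 2% RPS and 0.634 for mouse 5 on 0% RPS, and lay between 0.501 and 0.578 for the other 8 mice. These 2 mice also had the highest mitochondrial shares, at 13.82% and 13.02% of counts, against 9.04% to 11.2% in the others. For many of the gene lists below, counts are also given without one or both of them, or with each mouse left out in turn. B and plasma cell markers varied widely within each diet, and their mean log2 CPM was highest in mouse 3 on 2% RPS (5.15) and mouse 2 on 0% RPS (4.95). The mean distance between 2 mice was 0.544 across the diets, 0.555 within 0% RPS, and 0.562 within 2% RPS. Without mouse 3 on 2% RPS it was 0.509 across the diets, 0.555 within 0% RPS, and 0.462 within 2% RPS.

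No gene passed the threshold in this comparison. Of 14886 genes tested with edgeR's quasi-likelihood test, 0 were higher (0%) and 0 were lower (0%) with 2% RPS at an adjusted p of at most 0.05 and a fold change of at least 1.5, and the lowest adjusted p was 0.765. At an unadjusted p under 0.05, 355 genes were higher (2.38%) and 307 were lower (2.06%), which together are 662 genes where 744.3 would be expected if no gene differed. In the fit of all 20 mice the same comparison gave 396 higher and 490 lower genes, together 886 where 767.4 would be expected, so the count lay below that number in one fit and above it in the other. In 69 genes every mouse on 2% RPS lay above every mouse on 0% RPS (0.464%), and in 81 genes every one lay below (0.544%). Without both mice that stood farthest apart, 3.72% of all genes were higher and 3.07% lower at an unadjusted edgeR p under 0.05. Without mouse 3 on 2% RPS these shares were 2.68% and 2.76%. They were 3.4% and 2.09% without control mouse 5, and 2.65% and 2.45% without control mouse 2. In the fit of all 20 mice they were 2.58% and 3.19%. With limma-voom 0 genes passed the threshold. With the Wald test of DESeq2, the program named in the study, 6 genes passed in these 10 mice, and the lowest adjusted p was 5.5e-05. These were Acot12, Apoa4, Acaa1b, and Olr1, which were lower, and Nags and Kcnf1, which were higher. With DESeq2 and all 20 mice, 5 genes passed: Acot12, Acaa1b, Olr1, and Ier3 were lower and Nags was higher. The 7 genes were ranked between 1 and 8 by edgeR's p, and they are described first.

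The gene with the lowest p was Acot12, an acyl-CoA thioesterase that hydrolyzes acetyl-CoA (chromosome 13, 91889396 to 91935688 on GRCm39). Its level was 2.23, 3.66, 3.78, 3.75, and 3.40 CPM in mice 1 to 5 on 0% RPS. It was 0.576, 1.30, 1.20, 1.43, and 0.596 CPM in mice 1 to 5 on 2% RPS. The diets did not overlap, and the control nearest to the 2% mice was mouse 1. The log2 fold change was -1.72 ± 0.29 (SE, n = 5 per diet, edgeR adjusted p = 0.765).

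Apoa4 encodes an apolipoprotein of chylomicrons, the particles in which enterocytes export dietary fat (chromosome 9, 46151994 to 46154757). It was at 2.52, 1.91, 2.31, 2.11, and 1.94 CPM in the 0% mice. It was at 0.144, 0.580, 0.657, 0.729, and 0.137 CPM in the 2% mice. The diets did not overlap, although counts were low, with 49 to 79 reads in each control and 3 to 23 in each 2% mouse. The log2 fold change of Apoa4 was -2.24 ± 0.41 (edgeR adjusted p = 0.765).

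Acaa1b, a peroxisomal thiolase that performs the last step of peroxisomal fatty acid oxidation (chromosome 9, 118977091 to 118986161), was more abundant. Its level was 124, 73.2, 168, 115, and 127 CPM with 0% RPS. It was 63.9, 56.8, 57.3, 80.1, and 58.1 CPM with 2% RPS. Mouse 4 on 2% RPS lay above control mouse 2, and the other 2% mice lay below all controls. The log2 fold change of Acaa1b was -0.94 ± 0.18 (edgeR adjusted p = 0.98). The gene shares positions with Dlec1 on the other strand, and whether strand was used in counting is not given in the sources used here.

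Olr1, the endothelial and macrophage receptor for oxidized low-density lipoprotein (chromosome 6, 129462207 to 129484128), was at 6.92, 4.60, 7.71, 5.03, and 2.97 CPM with 0% RPS. With 2% RPS it was at 2.06, 1.40, 1.11, 3.08, and 1.26 CPM. Control mouse 5 fell within the range of the 2% mice. The log2 fold change of Olr1 was -1.62 ± 0.33 (edgeR adjusted p = 0.999). Ier3, an immediate early gene of stress and cytokine responses (chromosome 17, 36132568 to 36133815), was at 26.2, 16.4, 21.9, 28.1, and 21.0 CPM with 0% and 15.7, 14.4, 11.1, 14.8, and 15.2 CPM with 2% RPS. The diets did not overlap, and the log2 fold change of Ier3 was -0.67 ± 0.15 (edgeR adjusted p = 0.999).

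Nags and Kcnf1 were the genes with the lowest p among those with higher estimates. Nags encodes N-acetylglutamate synthase, which makes the activator of the first enzyme of the urea cycle (chromosome 11, 102036339 to 102040303). It was at 2.97, 3.19, 2.64, 3.49, and 3.00 CPM with 0% RPS and 4.46, 5.08, 6.84, 5.52, and 7.72 CPM with 2% RPS. No mouse of one diet reached the other, and the log2 fold change of Nags was 0.96 ± 0.17 (edgeR adjusted p = 0.765). Kcnf1, a modulatory subunit of voltage-gated potassium channels (chromosome 12, 17222101 to 17226889), was at 11.4, 11.0, 14.4, 14.7, and 17.1 CPM with 0% and 18.1, 20.4, 24.2, 20.6, and 24.4 CPM with 2% RPS. The diets did not overlap here either, and the log2 fold change of Kcnf1 was 0.65 ± 0.14 (edgeR adjusted p = 0.999). With each mouse left out in turn, all 7 genes kept their direction and an unadjusted p under 0.05 in all 10 fits. These genes were picked for their low p in fits that held the same mice, so this is a description and not separate support.

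**Figure D1:**
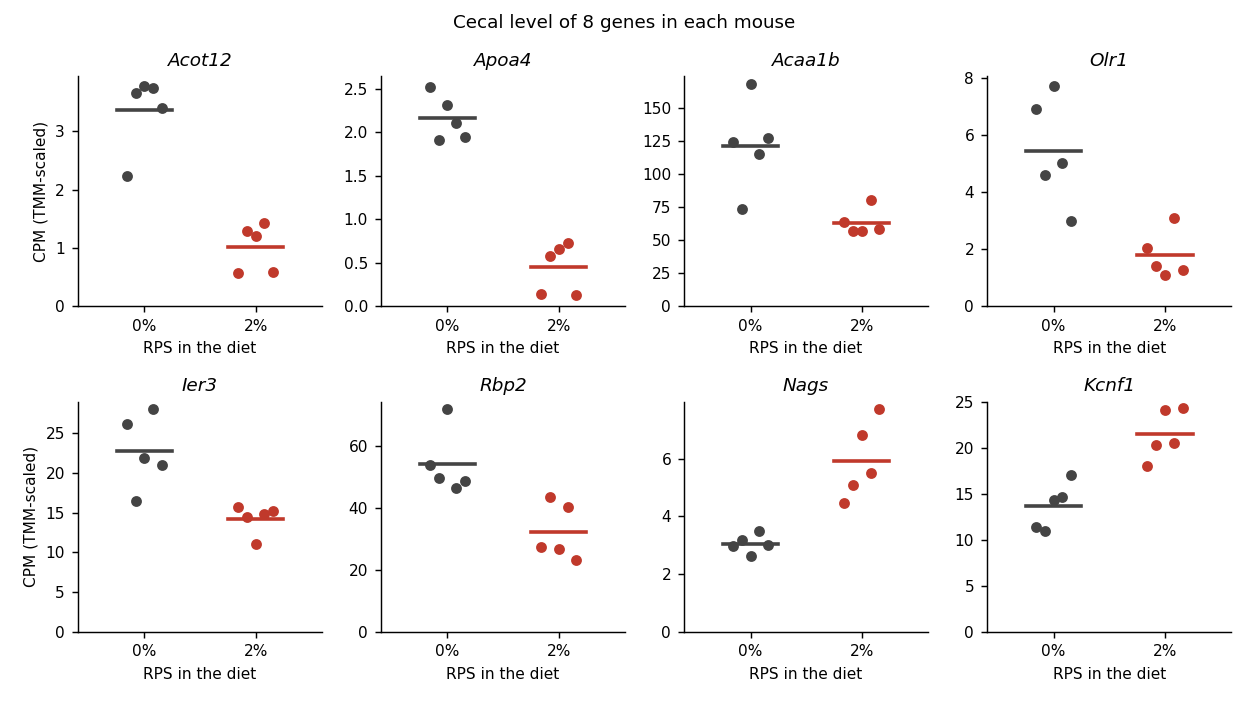
Level in each mouse (points) and mean per diet (lines) of 8 genes, in CPM scaled by TMM, with 0% (gray) and 2% RPS (red). In Acot12, Apoa4, Ier3, Rbp2, Nags, and Kcnf1 the 5 mice of one diet lie apart from the 5 of the other, whereas in Acaa1b and Olr1 the diets overlap at 1 control mouse each.

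The sequences upstream of the 4 genes with the lowest p are shown because 3 of them, Acot12, Apoa4, and Acaa1b, belong to fatty acid metabolism, whose nuclear receptors bind copies of the hexamer AGGTCA. Each window is the 250 bases before the annotated start, 5′ to 3′ on the strand of the gene, from RefSeq on GRCm38.p6, with any AGGTCA or its reverse complement in capitals. The windows are chr13:91741271-91741520 (plus strand) for Acot12, chr11:102145263-102145512 (plus) for Nags, chr9:46240594-46240843 (plus) for Apoa4, and chr9:119157094-119157343 (minus) for Acaa1b.
Acot12: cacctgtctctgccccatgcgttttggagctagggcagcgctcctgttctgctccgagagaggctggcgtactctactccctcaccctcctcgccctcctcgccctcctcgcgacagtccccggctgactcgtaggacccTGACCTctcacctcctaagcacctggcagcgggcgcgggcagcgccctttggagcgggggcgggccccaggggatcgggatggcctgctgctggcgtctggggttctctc
Nags: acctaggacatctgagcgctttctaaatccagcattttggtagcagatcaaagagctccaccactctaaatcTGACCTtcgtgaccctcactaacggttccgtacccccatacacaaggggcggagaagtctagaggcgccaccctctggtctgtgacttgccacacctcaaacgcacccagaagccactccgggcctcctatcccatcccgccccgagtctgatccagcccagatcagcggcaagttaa
Apoa4: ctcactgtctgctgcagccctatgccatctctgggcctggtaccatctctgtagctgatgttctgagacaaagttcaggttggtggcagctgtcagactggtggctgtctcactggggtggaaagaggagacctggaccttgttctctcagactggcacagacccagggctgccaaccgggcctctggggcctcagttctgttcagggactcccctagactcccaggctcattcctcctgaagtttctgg
Acaa1b: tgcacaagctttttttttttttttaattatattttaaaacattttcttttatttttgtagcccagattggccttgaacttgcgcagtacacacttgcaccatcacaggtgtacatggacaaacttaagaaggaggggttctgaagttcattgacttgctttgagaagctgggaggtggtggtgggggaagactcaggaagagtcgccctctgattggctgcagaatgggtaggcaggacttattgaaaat
The hexamer was present 1 time upstream of Acot12, beginning 110 bases before the start, and 1 time upstream of Nags, beginning 178 bases before it. It was not in the windows of Apoa4 and Acaa1b. Searched on both strands, it occurred in 14% of the 32851 promoters of the same length in RefSeq, and 2 copies spaced by 1 base (AGGTCANAGGTCA) occurred in 0.0335%, none of them upstream of these 4 genes. A match is a description of letters and not of a bound site.

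Beyond these, the genes with the lowest p and a fold change of at least 1.5 included epithelial, matrix, and immunoglobulin genes. Rbp2, the retinol-binding protein of absorptive enterocytes, was at 46.3 to 71.7 CPM with 0% and 23.2 to 43.6 CPM with 2% RPS, with no overlap (log2 fold change -0.75 ± 0.19). Ankrd22 was at 1.17 to 1.65 CPM with 0% and 0.511 to 1.08 CPM with 2% RPS, also without overlap. Plscr1l1, of the phospholipid scramblase family, had a log2 fold change of -1.21 ± 0.30, and the kinase gene Map3k8 one of -0.73 ± 0.20, and in both the diets overlapped. Among genes with higher estimates, Muc4, a membrane-bound mucin, was at 53.2 to 92.1 CPM with 0% and 87.3 to 168 CPM with 2% RPS (0.79 ± 0.18), with mouse 2 on 2% RPS below the highest control. Krt17, a keratin of stressed epithelia, was at 0.771 to 1.78 CPM with 0% and 2.38 to 3.16 CPM with 2% RPS. Fbn1, the microfibril protein fibrillin-1, was at 8.39 to 9.78 CPM in controls and 12.2 to 22.2 CPM in the 2% mice, and Ly6g2 at 5.33 to 11.6 CPM and 12.2 to 17.9 CPM. Neither Krt17, Fbn1, nor Ly6g2 overlapped between the diets.

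The remaining genes of this group were low. Chst15, a sulfotransferase of chondroitin sulfate, was at 0.257 to 0.428 CPM with 0% and 0.614 to 0.926 CPM with 2% RPS. Gm44502 and Gm2237 had log2 fold changes of 1.17 ± 0.26 and 1.35 ± 0.34 at levels under 1.1 CPM in every mouse, and Gm44502 shares positions with Chkb and Cpt1b. The immunoglobulin variable segments Ighv1-58 and Ighv1-15 had log2 fold changes of 2.77 ± 0.70 and -1.67 ± 0.44. Ighv1-58 had as few as 1 read in a mouse, and near-identical segments can share reads, so both are uncertain. The genes of this group had an edgeR adjusted p of 0.999. Muc4, Chst15, Apoa4, Rbp2, Ankrd22, Acsl3, Mttp, Acadvl, Ndufa8, Duoxa2, Ifit1bl2, Dtx3l, Mki67, and Ptgs1 also share positions with another annotated gene. So does Atp5po, with a second entry of the same name on the same strand. Reads there could have been split, so the values of these genes are uncertain in that respect.

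Genes listed for the burning of fatty acids had lower estimates as a group. Of 29 tested genes of fatty acid oxidation and ketogenesis, 27 had a lower and 2 a higher estimate, 8 were lower and 0 higher at an unadjusted edgeR p under 0.05, and 3 did not overlap between diets (0.544% of all genes lay lower without overlap). The share of 27.6% compares with the 2.06% of all genes that were lower at that p, and the median log2 fold change was -0.19 against 0.01 over all genes. None passed the adjusted threshold. The share was counted and not tested, since the list was drawn up with earlier results of these mice known.

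The 8 genes included enzymes of oxidation as well as genes outside its steps, among them Acot12, Pdk4, and Vnn1. Besides Acot12 and Acaa1b, they included Acadvl and Hadha, which act on long chains in mitochondria, Cpt2, which receives fatty acids inside the mitochondrion, Pdk4, a kinase that spares glucose when fat is burned, and Vnn1, a pantetheinase. Acadvl was at 210 to 243 CPM with 0% and 166 to 208 CPM with 2% RPS (log2 fold change -0.24 ± 0.08), and Hadha at 498 to 577 CPM and 429 to 487 CPM (-0.21 ± 0.08), and in these the diets did not overlap. Pdk4 averaged 128 ± 31.8 (SD) and 76.7 ± 34.7 CPM (-0.74 ± 0.30), and its diets overlapped. Ppara, the fatty acid-sensing receptor, had an estimate of -0.17 ± 0.14, with an unadjusted p above 0.05. The mean log2 CPM of the list was 6.50 to 6.85 in controls and 6.23 to 6.53 in the 2% mice, with only mouse 4 on 2% RPS above the lowest control, mouse 1. With each mouse left out, 5 to 11 of the 29 genes were lower at an unadjusted p under 0.05, and 7 were without the 2 mice that stood farthest apart.

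Nuclear-encoded subunits of oxidative phosphorylation, the mitochondrial complexes that turn reduced cofactors into ATP, had small lower estimates almost throughout. Of 74 subunit genes, 72 had a lower estimate, 20 were lower and 0 higher at an unadjusted edgeR p under 0.05 (27% against 2.06% of all genes), and 5 did not overlap (against 0.544%). The median log2 fold change was -0.23, and the estimates lay between -0.40 and 0.16. Atp5mc1 of ATP synthase was at 231 to 289 CPM with 0% and 162 to 237 CPM with 2% RPS (-0.34 ± 0.11). Ndufa10 of complex I was at 194 to 232 CPM and 176 to 191 CPM (-0.22 ± 0.07), with no overlap. Ndufa8 of complex I (-0.28 ± 0.10), Atp5po of ATP synthase (-0.26 ± 0.09), Uqcrh of complex III (-0.30 ± 0.10), and Sdhc of complex II (-0.24 ± 0.09) had estimates of the same order.

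Mouse 3 on 2% RPS had the lowest subunit level, at a mean log2 CPM of 7.05, where the other 2% mice were at 7.30 to 7.57 and the controls at 7.47 to 7.67. Its mitochondrially encoded genes took the largest share of counts, as given above. Without this mouse, 19 subunits were lower at an unadjusted p under 0.05 and the median was -0.15. Without both mice that stood farthest apart, 21 were lower and the median was -0.14. With each mouse left out, the count lay between 10 (2% mouse 2 left out) and 38 (2% mouse 4 left out). In the fit of all 20 mice it was 36 (48.6% against 3.19% of all genes in that fit). Lower genes over all genes rose too, from 307 to 527 of 14974 without 2% mouse 4 and to 490 with 20 mice. The list as a whole overlapped between diets, because mouse 4 on 2% RPS was at the level of the controls.

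**Figure D2:**
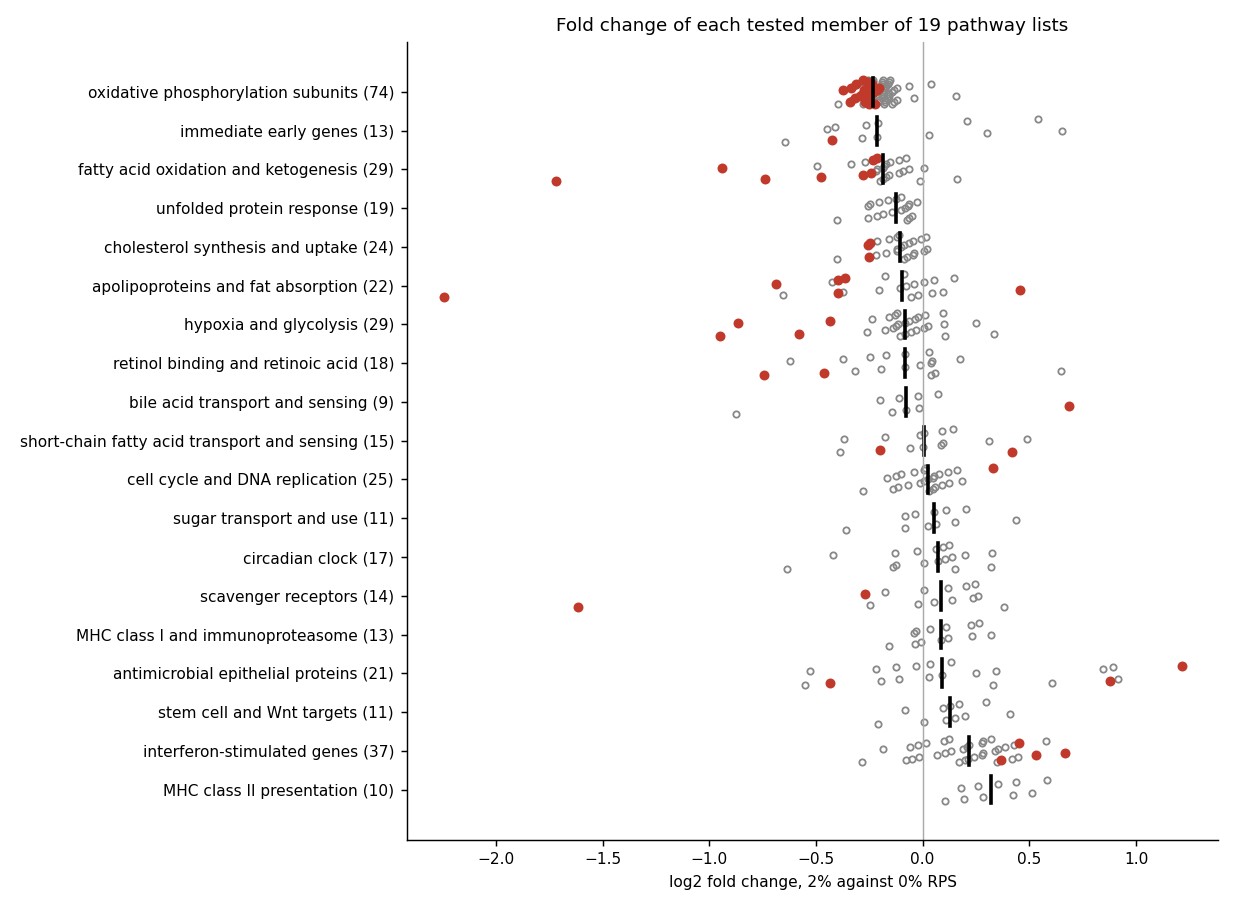
Log2 fold change of 2% against 0% RPS for each tested member of 19 pathway lists, with the number tested in parentheses. Filled red points had an unadjusted edgeR p under 0.05, open gray points did not, and black bars are medians, which range from -0.23 for oxidative phosphorylation subunits to 0.32 for MHC class II presentation.

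Fat absorption and export gave a smaller count. Of 22 tested genes of this list, 5 were lower (22.7% against 2.06% of all genes) and 1 higher (4.55% against 2.38%) at an unadjusted edgeR p under 0.05, and the median log2 fold change was -0.10. Besides Apoa4, the lower genes were Acsl3, which activates long-chain fatty acids for lipid droplets, the droplet coat gene Plin2, the triglyceride synthesis gene Dgat2, and Creb3l3, a transcription factor of lipid metabolism. Acsl3 was at 636 ± 65.1 CPM (SD, n = 5) with 0% and 493 ± 34.5 CPM with 2% RPS, without overlap (-0.37 ± 0.09). Plin2 (-0.40 ± 0.14), Dgat2 (-0.39 ± 0.18), and Creb3l3 (-0.69 ± 0.30) overlapped between the diets. Mttp, which loads lipid onto chylomicrons, had a higher estimate (0.46 ± 0.19) at 1.46 to 2.20 and 1.87 to 2.96 CPM. The mean log2 CPM of the list was 5.68 to 5.83 in controls and 5.22 to 5.48 in 4 of the 2% mice, and mouse 4 on 2% RPS was at 5.79. Without mouse 4 on 2% RPS, 9 genes were lower at an unadjusted p under 0.05 and the median was -0.27. In that fit 527 of all 14974 genes were lower. Without the 2 mice that stood farthest apart, 3 were lower and 0 higher.

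Small intestinal markers were examined because Apoa4 and Rbp2 are abundant there. Of 8 listed genes, 4 were tested. Sis, the brush border sucrase-isomaltase, was at 0.429 to 1.09 CPM with 0% and 0.240 to 0.418 CPM with 2% RPS (-0.96 ± 0.33). The diets did not overlap, but Sis had only 5 to 28 reads in each mouse, so the narrow gap is within counting error. Slc10a2, the bile acid transporter of the ileum, went the other way. It was at 72.0, 69.8, 76.7, 66.9, and 39.6 CPM in controls and 86.7, 112, 102, 81.9, and 140 CPM in 2% mice (0.68 ± 0.18), and every 2% mouse lay above every control. The summed CPM of the list was 145.6 to 187.1 with 0% and 151.4 to 201.5 with 2% RPS, and most of it was Slc10a2 and Alpi. The part of small intestinal RNA in these results was not tested.

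Genes of cholesterol synthesis and uptake had a median of -0.11. Of 24 genes, 3 were lower (12.5% against 2.06% of all genes) and 0 higher at an unadjusted edgeR p under 0.05. In the fit of all 20 mice 1 was lower (4.17% against 3.19% of all genes in that fit). The count went from 1 (2% mouse 1 left out) to 4 (2% mouse 2 left out) over the single mice. They included Ebp, a late enzyme of sterol synthesis (-0.25 ± 0.08), and Insig1, which retains the sterol sensor in the endoplasmic reticulum (-0.26 ± 0.10). In both the diets overlapped. Of 18 tested genes of retinol binding and retinoic acid metabolism, 2 were lower at that p (11.1%), among them Rbp2. Without mouse 1 on 2% RPS, 1 was, and without the 2 mice that stood farthest apart, 3 were. Of 14 scavenger receptors, Olr1 and the lysosomal Scarb2 (-0.27 ± 0.09) were lower (14.3%) and 0 higher, and 3 were lower without those 2 mice.

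Among 29 genes of hypoxia and glycolysis, 4 were lower and 0 higher at an unadjusted edgeR p under 0.05 (13.8% against 2.06%), and the median was -0.09. They were Stc1, which encodes the hormone stanniocalcin-1, Slc2a1, the basal glucose transporter GLUT1, Hilpda, a lipid droplet protein induced by hypoxia, and Ndrg1, a differentiation and hypoxia response gene. Stc1 was at 9.29, 8.88, 5.72, 11.5, and 8.83 CPM with 0% and 6.82, 4.47, 4.51, 5.20, and 1.99 CPM with 2% RPS (-0.95 ± 0.28). Slc2a1 was at 338, 296, 363, 323, and 417 CPM with 0% and 260, 264, 270, 304, and 189 CPM with 2% RPS (-0.43 ± 0.13). In each of these, 1 mouse on 2% RPS lay above the lowest control. Hilpda (-0.86 ± 0.31) and Ndrg1 (-0.58 ± 0.24) overlapped more widely. Without the 2 mice that stood farthest apart, 3 genes of this list were lower and 0 higher at that p.

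The list for SCFAs, the products of RPS fermentation, holds carriers, receptors, and enzymes and had 1 gene in each direction. Of 15 genes, 1 was higher (6.67% against 2.38% of all genes) and 1 lower (6.67% against 2.06%) at an unadjusted edgeR p under 0.05, and the median log2 fold change was 0.01. Slc26a3, the apical chloride and bicarbonate exchanger of colonocytes, was at 1180, 1260, 1310, 1250, and 912 CPM in controls and 1420, 1510, 1500, 1500, and 1970 CPM in 2% mice (0.42 ± 0.12), without overlap. Acads, the mitochondrial dehydrogenase that acts on butyrate, was at 386 to 426 CPM with 0% and 312 to 384 CPM with 2% RPS (-0.20 ± 0.08), also without overlap. No other listed gene, including the carrier gene Slc16a1 and the receptor gene Ffar2, had an unadjusted edgeR p under 0.05. Over fits without single mice, 1 to 2 genes of this list were higher (2 without mouse 3 on 2% RPS) and 0 to 1 lower (0 without control mouse 3), and Acads had an unadjusted p under 0.05 in 7 of 10. Of the 9 tested genes of bile acid transport and sensing, Slc10a2 alone had an unadjusted edgeR p under 0.05 (11.1% against 2.38% higher). For sugar transport and use, 0 of 11 genes did, and 0 to 2 were higher with each mouse left out. The most abundant gene, Txnip, had an estimate of 0.03 ± 0.14.

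Interferon-stimulated genes, which restrict viruses and are induced by interferons, had higher estimates in 30 of 37 genes. At an unadjusted edgeR p under 0.05, 5 were higher (13.5% against 2.38% of all genes) and 0 lower, and the median was 0.22. They were the RNA helicase gene Mov10, Ifit1bl2, the ubiquitin ligase gene Dtx3l, the nucleotide kinase gene Cmpk2, and Mx1. With each mouse left out, Mov10 and Ifit1bl2 had an unadjusted p under 0.05 in 10 of 10 fits. Dtx3l and Cmpk2 had one in 4 and Mx1 in 2. Mov10 was at 30.1, 46.4, 30.4, 29.9, and 29.1 CPM with 0% and 45.8, 46.0, 68.8, 31.5, and 71.3 CPM with 2% RPS (0.67 ± 0.22). Control mouse 2 stood among the 2% mice. Ifit1bl2 was at 3.69 to 7.31 and 7.54 to 10.1 CPM (0.53 ± 0.19), without overlap. The list depended on the controls: its mean log2 CPM was 3.17 and 2.94 in control mice 3 and 5, and 3.64 to 4.16 in the other 8 mice. Leaving out control mouse 5 gave 2 higher genes at that p (5.41% against 3.4% of all genes in that fit) and a median of 0.10. Leaving out control mouse 2 gave 10 (27% against 2.65%). Without the 2 mice highest in B cell markers 9 were higher (24.3% against 3.11%). Without both mice that stood farthest apart, 2 were higher (5.41% against 3.72%) and the median was 0.07.

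MHC class II genes, which present antigen on B cells, macrophages, and dendritic cells, had higher estimates in 10 of 10 genes with a median of 0.32, and 0 had an unadjusted edgeR p under 0.05. These values followed single mice. Cd74, the invariant chain, was at 189, 403, 99.6, 107, and 105 CPM with 0% and 137, 89.7, 632, 173, and 120 CPM with 2% RPS, and the highest values were in the mice highest in B cell markers. Without mouse 3 on 2% RPS, all 10 genes had a lower estimate and the median was -0.32. The median of 22 B and plasma cell markers was 0.13 in all mice. It was -1.60 when mouse 3 on 2% RPS was left out and 1.69 when control mouse 2 was. The immunoglobulin heavy chain Ighg1 was at 1.26 to 10.4 CPM with 0% and 2.88 to 32.4 CPM with 2% RPS (1.66 ± 0.71), and was the 1 gene of these 22 that was higher at an unadjusted edgeR p under 0.05 (4.55% against 2.38% of all genes). Without mouse 3 on 2% RPS, 0 were higher and 2 lower at that p (9.09% against 2.76% of all genes in that fit), and without control mouse 5, 0 were. For T and NK cells the level was highest in the same mouse 3, and 0 of 18 markers had an unadjusted edgeR p under 0.05. Without that mouse, 17 of the 18 had a lower estimate, 3 were lower at that p (16.7% against 2.76%), and the median went from 0.09 to -0.26. Without both mice that stood farthest apart 4 were lower (22.2% against 3.07%). For MHC class I and the immunoproteasome it was 0 of 13, with H2-K1 at 0.03 ± 0.11.

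**Figure D3:**
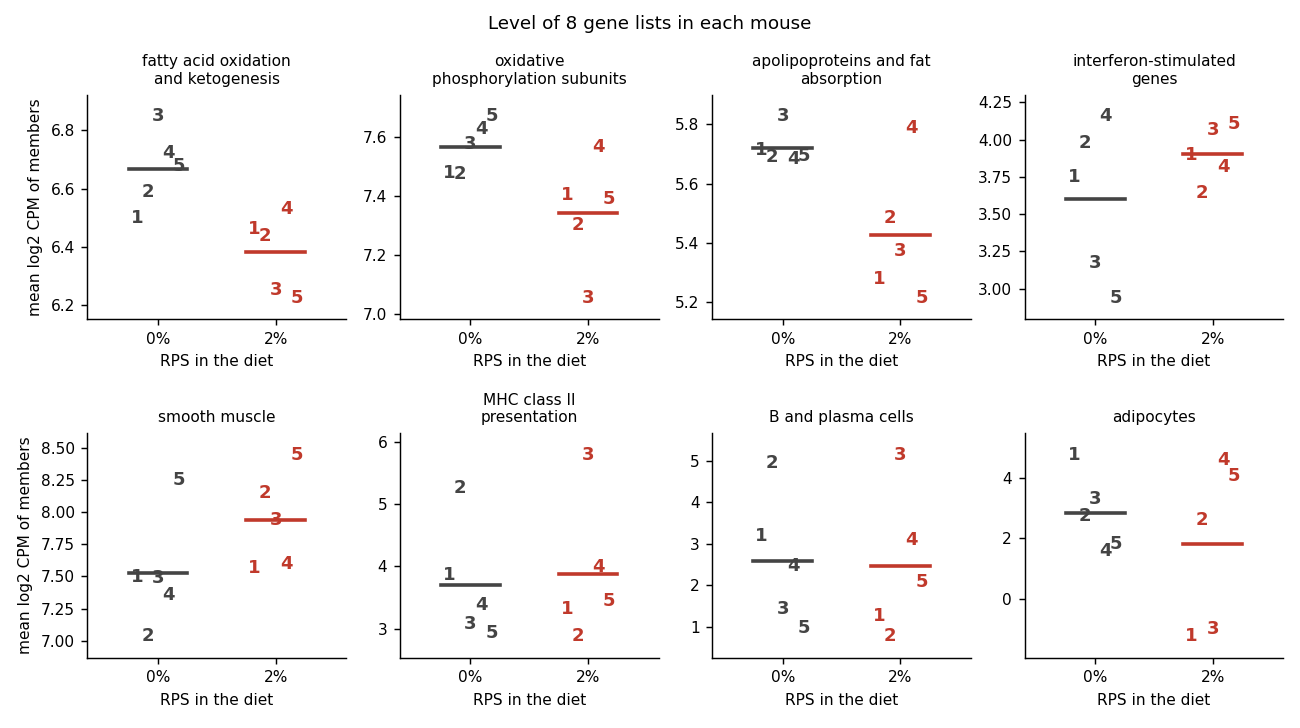
Mean log2 CPM of the members of 8 gene lists in each mouse, with the digit giving the mouse number within its diet (gray 0%, red 2% RPS) and lines the mean per diet. Mouse 3 on 2% RPS is lowest in oxidative phosphorylation and highest in B cell and MHC class II genes, and the diets overlap in all 8 lists.

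Epithelial defense genes were mixed. Of 21 tested, Saa1, an acute-phase protein, and Duoxa2, which matures the hydrogen peroxide-producing oxidase DUOX2, were higher at an unadjusted edgeR p under 0.05 (9.52% against 2.38% of all genes), and Zg16, a goblet cell lectin that binds Gram-positive bacteria, was lower (4.76% against 2.06%). Saa1 was at 147, 72.0, 55.8, 74.5, and 63.8 CPM with 0% and 119, 104, 163, 146, and 226 CPM with 2% RPS (0.88 ± 0.28), and control mouse 1 was within the range of the 2% mice. Duoxa2 was at 1.57 to 11.8 and 8.46 to 27.9 CPM (1.21 ± 0.54), and Duox2 had an estimate of 0.91 ± 0.42, with an unadjusted p above 0.05. Zg16 was at 1970 to 3120 and 1090 to 2360 CPM (-0.43 ± 0.19). When each mouse was left out, 1 to 5 genes of this list were higher and 0 to 1 lower at that p. Without control mouse 5, 1 was higher, without control mouse 2, 4 were (19%) and the median went from 0.09 to 0.40, and without both mice that stood farthest apart 0 were higher and 0 lower.

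The unfolded protein response, the chaperone program of the endoplasmic reticulum, had lower estimates in 19 of 19 genes, but 0 had an unadjusted edgeR p under 0.05. The median was -0.12, and Hsp90b1 had an estimate of -0.03 ± 0.14. Of 13 immediate early genes, Btg2 was lower at that p (-0.43 ± 0.19), which is 7.69% of the list against 2.06% of all genes. With each mouse left out, 0 to 3 of these genes were lower, with 3 (23.1%) and a median of -0.39 without control mouse 2. Of 25 genes of cell cycle and DNA replication, Mki67, the proliferation antigen, was higher (0.33 ± 0.15), which is 4% of the list against 2.38% of all genes, and the median was 0.03. In the fit of all 20 mice, and without mouse 3 on 2% RPS or control mouse 5, 0 of these genes were higher, and with each mouse left out 0 to 2 were lower. Clock genes (0 of 17, with Bhlhe40 at -0.03 ± 0.13) and stem cell and Wnt target genes (0 of 11, with Ephb2 at 0.00 ± 0.10) gave none at that p. Without control mouse 5, 4 of the 11 stem cell and Wnt target genes were higher (36.4% against 3.4% of all genes in that fit) and 1 of the 17 clock genes was lower, and without both mice that stood farthest apart 2 of the 11 and 0 of the 17 were.

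Markers of the cell types in the cecal wall were counted the same way, against 2.38% higher and 2.06% lower over all genes. One gene is already 8.33% of a list of 12 and 12.5% of a list of 8. All 8 epithelial markers had an unadjusted edgeR p above 0.05, and Lgals4 had the highest count (-0.17 ± 0.11). Of 8 surface colonocyte markers, Slc26a3 and the carbonic anhydrase gene Car4 (0.25 ± 0.11) were higher, while the median of the list was -0.13. Goblet cells had 1 of 12 lower (Zg16, median -0.15). Neither enteroendocrine cells (0 of 10, Chgb at 0.38 ± 0.19) nor tuft cells (0 of 7, Ptgs1 at -0.03 ± 0.11) had any. Macrophages had 1 of 12 higher, the efferocytosis receptor gene Mertk (0.23 ± 0.10), and fibroblasts and matrix had 2 of 8 higher, the collagen genes Col3a1 (0.42 ± 0.18) and Col1a1 (0.43 ± 0.20). Endothelium had 1 of 8 higher, the angiopoietin receptor gene Tek (0.29 ± 0.11), whose unadjusted p was under 0.05 in 6 of 10 fits without a mouse. Without control mouse 2, 0 endothelial genes were higher, and without both mice that stood farthest apart 2 were. Without mouse 3 on 2% RPS, 0 goblet cell, 0 macrophage, and 0 fibroblast and matrix genes were higher or lower at that p, and the same held without control mouse 5. The macrophage median went from 0.13 to -0.04 without mouse 3 on 2% RPS. When single mice were left out, surface colonocytes had 1 to 2 higher and 0 to 3 lower, goblet cells 0 to 2 lower, and fibroblasts and matrix 0 to 3 higher. The highest counts of lower genes in surface colonocytes and goblet cells came without mouse 4 on 2% RPS, and that of higher genes in fibroblasts and matrix without control mouse 2. In the fit of all 20 mice, fibroblasts and matrix had 0 higher.

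Smooth muscle markers had higher estimates in 10 of 10 genes, with a median of 0.32, and Actg2, the enteric smooth muscle actin, was higher at an unadjusted edgeR p under 0.05. Actg2 was at 387, 239, 256, 292, and 336 CPM with 0% and 376, 466, 364, 377, and 648 CPM with 2% RPS (0.56 ± 0.18). Control mouse 1 lay within the range of the 2% mice. Control mouse 5, whose muscle level was the highest of the controls, weighed on this list: without it, 10 of 10 genes were higher at that p, where 3.4% of all genes were, and the median was 0.60. Without both mice that stood farthest apart 9 were, against 3.72% of all genes. The summed CPM of the list was 2986 to 6952 with 0% and 4064 to 6999 with 2% RPS. Of the other wall cells, enteric neurons and glia (0 of 13, Nos1 at -0.25 ± 0.30) and adipocytes (0 of 8, Fabp4 at -0.11 ± 0.65) gave none at that p, as did neutrophils (0 of 3, Mmp9 at 0.15 ± 0.35) and red blood cells (0 of 4, Hbb-bs at -0.31 ± 0.44). The adipocyte level was lowest, at -1.23 log2 CPM, in a 2% mouse (mouse 1) and highest, at 4.77, in a control (also mouse 1). The pancreatic gene Clps was at 0.263 to 0.935 CPM in all 10 mice (-0.10 ± 0.35). The part of differing tissue layers in these results was not tested.

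The same genes were then followed through the higher doses, with all 20 mice in 1 edgeR model of 15348 genes. No gene passed the threshold between 10% and 2% RPS (0%), between 5% and 2% RPS (0%), or between 2% RPS and the mean of the other diets (0%). At an unadjusted p under 0.05 there were 720 genes for 10% against 2% (4.69%), 520 for 5% against 2% (3.39%), and 204 for 2% against the mean of the others (1.33%), where 767.4 would be expected if no gene differed. The comparisons with 2% share the 2% mice and are not independent of the values above.

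Some genes had similar means on the 3 RPS diets. Acaa1b averaged 124 CPM with 0% RPS and 64.1, 63.6, and 63.6 CPM with 2, 5, and 10% RPS, with an estimate of -0.01 ± 0.20 for 10% against 2%. Ier3 averaged 23.1 CPM with 0% and 14.5, 13.6, and 12.7 CPM with the 3 doses (10% against 2%, -0.19 ± 0.14). Acot12 averaged 3.43, 1.03, 0.975, and 1.44 CPM (10% against 2%, 0.45 ± 0.38). These standard errors do not exclude differences of that order between the doses.

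Other genes were farther from the controls at the higher doses. Nags averaged 3.11, 6.00, 8.14, and 7.31 CPM on the 4 diets, with 0.44 ± 0.20 for 5% against 2% and 0.28 ± 0.20 for 10% against 2%. Kcnf1 averaged 14.0, 21.8, 26.4, and 25.9 CPM, with 0.27 ± 0.18 and 0.25 ± 0.18. Stc1 averaged 9.0 CPM with 0% RPS, 4.66 CPM with 2%, 2.25 CPM with 5%, and 1.92 CPM with 10%, an estimate of -1.28 ± 0.35 for 10% against 2% (edgeR adjusted p = 0.998). Slc2a1 averaged 353, 261, 210, and 183 CPM, with -0.51 ± 0.13 for 10% against 2% (edgeR adjusted p = 0.998). Rbp2 averaged 54.9, 32.6, 23.2, and 23.0 CPM (-0.51 ± 0.21), Ndrg1 564, 376, 214, and 231 CPM (-0.70 ± 0.25), and Saa1 84.1, 154, 259, and 255 CPM (0.73 ± 0.32). Apoa4 averaged 2.20, 0.455, 0.132, and 0.246 CPM, with -1.69 ± 0.64 for 5% against 2% and -1.02 ± 0.60 for 10% against 2%. None of these differences between doses passed the adjusted threshold. For Clps, the estimate for 10% against 2% was -1.55 ± 0.45.

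**Figure D4:**
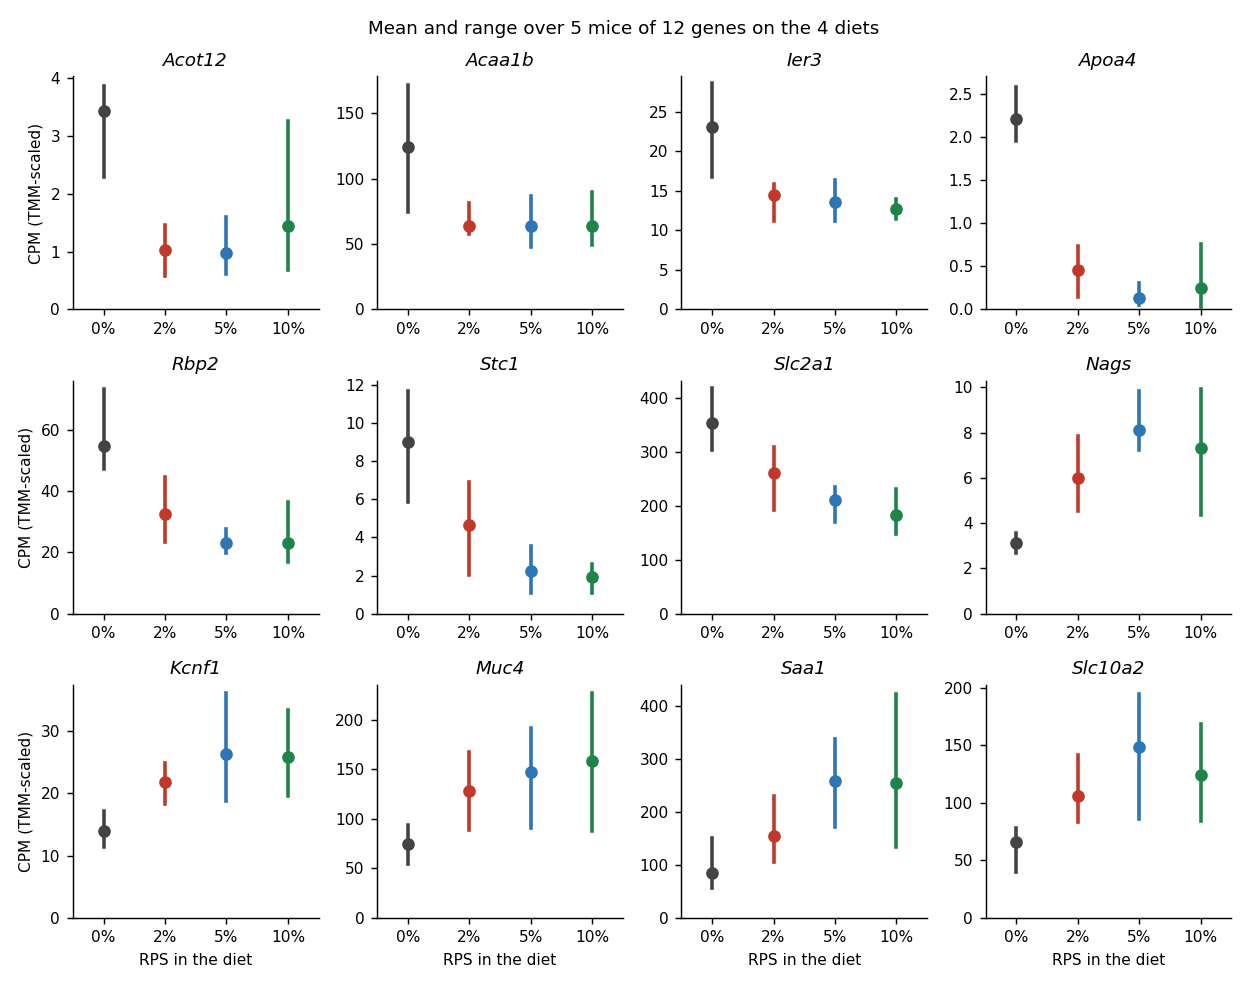
Mean (points) and range over 5 mice (lines) in CPM, scaled by TMM over all 20 mice, of 12 genes on the TWD with 0, 2, 5, and 10% RPS. Acaa1b and Ier3 are at like means on the 3 RPS diets, whereas Stc1 and Slc2a1 have lower means at 5 and 10% than at 2% RPS.

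The comparison of 10% with 5% RPS shares no mouse with that of 2% and 0% RPS. Of the 307 genes that were lower at an unadjusted edgeR p under 0.05 with 2% RPS, 219 had a lower estimate with 10% than with 5% RPS, and of the 355 that were higher, 224 had a higher estimate. Over all 14886 genes, 7434 had a lower and 7452 a higher estimate. The shifts were small, with medians of -0.06 and 0.04 log2. Of the 10 genes with the lowest p in each direction, 4 lower genes were lower and 4 higher genes were higher with 10% than with 5% RPS. Genes are not independent of each other, so these counts describe the mice and are not a test.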

How the data were processed

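RNA of whole cecum from 20 mice was sequenced as stranded poly(A) libraries with single-end reads. The authors trimmed the reads, mapped them with the CLC Genomics Workbench (GRCm39), and deposited raw counts per gene. The annotation release, the strand setting, and the handling of multimapping reads are not given in the sources used here. Diets were taken from the labels. Of 19887 genes, 19827 were found in GENCODE mouse release 39, and the 10 mice on 0% and 2% RPS were filtered with filterByExpr (minimum count 10, minimum total 15), leaving 14886 genes.

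TMM-scaled counts were fitted by the robust quasi-likelihood model of edgeR 4.0.16 in R 4.3.3, with Benjamini-Hochberg adjustment over all tested genes. A gene was called at an adjusted p of at most 0.05 and a fold change of at least 1.5. Tests are two-sided. Log2 CPM used a prior count of 2, and SE is that of the log2 fold change. DESeq2 1.42.0, limma 3.58.1 (limma-voom), and sva 3.50.0 served as alternatives, besides other normalizations, filters, and each mouse left out. Library measures were compared by exact permutation over 252 assignments, and figures were drawn with matplotlib 3.10.9. Total counts were 20376315 to 42687283 per mouse. In genes with few reads, such as Apoa4, Chst15, Sis, and Gm44502, counting error takes a large part of the spread between mice.

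The members and the gene lists were chosen with earlier results of these data known. Named genes are the 10 with the lowest p in each direction and a fold change of at least 1.5, genes called in any alternative other than those leaving out a mouse, and from each list up to 4 members with an unadjusted p under 0.05 or, where none had one, the member with the highest count. Pdk4, Hadha, Vnn1, Cpt2, Creb3l3, Dgat2, Mx1, Ppara, Duox2, Uqcrh, and Sdhc were added from the lists after values were seen. Members of the lists without a match were not analysed here, and some named genes are not reported here.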

Additional observations from a re-analysis of the deposited data

Results flagged for a closer look

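In 24 of 242 groups of 5 mice examined (named genes, gene lists, and library measures on each diet), 1 mouse lay far from the other 4 by Dixon's criterion, which chance alone gives in about 1 of 20 groups. No explanation was tested, and values are in CPM unless stated. With 0% RPS, mouse 1 was low in Acot12 (2.23, nearest mouse 3.40) and high in Ighv1-15 (3.41), Saa1 (147), and Fabp4 (174). Control mouse 2 was high in Mov10 (46.4). Control mouse 3 was high in Plin2 (279), Ppara (24.4), Chgb (50.6), and the mean log2 CPM of fat absorption genes (5.83). Control mouse 5 was high in Ebp (86.7), Atp5po (197), Zg16 (3120), and H2-K1 (925) and low in Slc10a2 (39.6).

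With 2% RPS, mouse 3 was high in Cd74 (632, nearest mouse 173), in the share of counts on immunoglobulin genes (0.241%), and in the mean log2 CPM of T and NK cell genes (2.57). Mouse 4 was high in Plscr1l1 (7.86), Ebp (74.5), and the mean log2 CPM of epithelial genes (10.7), and low in that of stem cell and Wnt target genes (3.97). Mouse 5 was high in Fbn1 (22.2) and Slc26a3 (1970) and low in the mean log2 CPM of goblet cell genes (7.83).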

How the results depend on the processing

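Under every alternative except DESeq2's Wald test, 0 genes were called between 2% and 0% RPS. DESeq2 called 2 higher and 4 lower genes in 10 mice, and 1 higher and 4 lower genes in 20 mice. The number of genes lower at an unadjusted p under 0.05 was 490 in the edgeR fit of 20 mice and 580 with DESeq2 and 20 mice, and the number higher was 553 without the 2 mice farthest from the others, a fit added after seeing the data. With each mouse left out, these counts were 228 to 510 higher, and 204 (2% mouse 5 left out) to 527 (2% mouse 4 left out) lower. The cause was not tested. The 7 genes that DESeq2 called, and all other named genes except those given next, kept their direction under all alternatives run. No paired analysis was possible because no mouse number in the labels occurs on 2 diets. Genes with few reads, such as Apoa4, Chst15, Sis, and Gm44502, are limited by depth. Some genes named from the lists lost an unadjusted edgeR p under 0.05 in most fits without a mouse. Cpt2 kept it in 2 of 10 fits, Zg16 and Ighg1 in 3, and Duoxa2, Btg2, and Dgat2 in 4.

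Some estimates changed sign, many of them near 0 but also those of Cd74 (0.35) and Nos1 (-0.25). With each mouse left out, Txnip lay between -0.07 and 0.13, H2-K1 between -0.03 and 0.09, Cd74 between -0.48 and 0.88, Hsp90b1 between -0.11 and 0.07, Bhlhe40 between -0.13 and 0.04, Ephb2 between -0.04 and 0.06, Ptgs1 between -0.11 and 0.04, Mmp9 between -0.05 and 0.37, Nos1 between -0.39 and 0.10, Fabp4 between -0.75 and 0.49, and Clps between -0.28 and 0.14. Without the 2 mice highest in B cell markers, also added, H2-K1 was at -0.03, Ephb2 at -0.07, Ptgs1 at 0.09, Fabp4 at 0.02, and Clps at 0.11. Without the 2 mice farthest from the others, Cd74 was at -0.63, Ephb2 at -0.02, Ptgs1 at 0.06, Mmp9 at -0.13, and Nos1 at 0.13. Ephb2 was at 0.00 with 20 mice, both DESeq2 fits, and 1 surrogate variable, and Clps at 0.00 with limma-voom. The difference between diets (2% minus 0%) also changed sign with each mouse left out for the total count (-1769000 to 3809000), genes detected (-30.6 to 114.3), and the percent of counts on mitochondrial (-0.286 to 1.22), immunoglobulin (-0.0344 to 0.0216), and the top 50 genes (-0.690 to 0.864).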
